A study of Saccharomyces cerevisiae with 2 samples.

Results

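The RNAs described here are the 20 box C/D small nucleolar RNAs (snoRNAs) of budding yeast that are transcribed from genes of their own and guide methylation of ribosomal RNA. They were chosen by name, from SNR13 to SNR87, with no measured value in the choice, although earlier results of these data were known at the time. They are 20 of the 76 annotated snoRNAs and of the 4336 gene names listed in the data. The data are 2 iCLIP libraries of the DEAD-box RNA helicase Dbp2p, made from whole cells that were irradiated with UV light. Both replicates come from the MATa strain BTY140, which carries DBP2-HTBH:kanMX6 (DBP2 with a histidine-biotin tag) together with his3Δ1, leu2Δ0, met15Δ0 and ura3Δ0, and which was grown in YPD medium at 30 °C to an OD600 of about 1.0. They form 1 group, with no untagged strain and no input RNA used here, so no position was set against a background library, and how much of each RNA the cells held was not measured here. The labels do not say how the cultures were separated, so a spread between the replicates may be technical. The series title links Dbp2p to non-coding RNAs, and the question put to these files is where along the RNAs the listed nucleotides lie.

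Box C/D snoRNAs are short RNAs that hold 2 sequence boxes near their ends, box C close to the 5' end and box D close to the 3' end, often with a second pair, C' and D', inside the RNA. They are bound by Snu13, Nop56, Nop58 and the methyltransferase Nop1. A stretch upstream of box D or D' pairs with ribosomal RNA, and the nucleotide opposite the fifth base before the box receives a methyl group on its ribose. Most of these genes are transcribed by RNA polymerase II, with ends set by processing enzymes, while SNR52 is transcribed by RNA polymerase III. As textbook background, 14 of the 20 guide methylation of the 25S ribosomal RNA, 3 of the 18S ribosomal RNA (SNR56, SNR79 and SNR87), and 3 of both (SNR40, SNR47 and SNR52). Dbp2p is an ATP-dependent RNA helicase known from transcription, messenger RNP assembly and ribosome biogenesis.

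The stretch from 44 to 15 nt before the annotated 3' end includes the strongest nucleotides of most of these RNAs in replicate 1, and it is shown 5' to 3' for 8 RNAs that differ in how the replicates relate there. The letters were read from the deposited tables, which give a base only where a nucleotide was listed, so n marks a nucleotide listed in neither replicate, lower case marks one listed in 1 replicate, and capitals mark nucleotides listed in both. The build is sacCer3.
SNR60 (chr10:349145-349174, minus strand): ngananaanttnccATcGAAATTAgTcttt
SNR79 (chr12:348442-348471, minus strand): cgnnnnnnnnacAatGATtTCTcaagacta
SNR66 (chr14:586131-586160, plus strand): ntnncAAAAAgAaAcAtgganganatngct
SNR40 (chr14:89262-89291, plus strand): AcTCAggtnncctatgnnncAttAagtata
SNR13 (chr4:1402998-1403027, plus strand): cnnnnngnaaaaantCAAgcTacctttttt
SNR52 (chr5:431144-431173, minus strand): nnnnnntntnnnannngaaaAActtatgtt
SNR71 (chr8:411273-411302, plus strand): nnntganAaAAatttcctatccaacattca
SNR64 (chr11:38867-38896, plus strand): tntaaagnnnnnnttttagtagagcttagg
SNR60 had 10 nucleotides of this window in both replicates, SNR66 had 8 and SNR79 had 7, while SNR64 had 23 listed nucleotides there and none in both.

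The first 20 nt are shown for 4 RNAs in which the 5' end was listed in both replicates, with the same marks.
SNR52 (chr5:431201-431220, minus strand): TAntatgatnannnnnnnna
SNR71 (chr8:411228-411247, plus strand): GtTatatnatgananncnnn
SNR40 (chr14:89210-89229, plus strand): GtaAatnaCnagAaAnannn
SNR66 (chr14:586090-586109, plus strand): AtcAaatnnnnnnntnnnnn
The letters TGATGA, the core of box C, were searched in the first 20 nt of the RNA strand alone, since the RNA has 1 strand, in windows of 6 nt with at least 4 known letters. Of 12 RNAs with such a window, 4 matched at every known letter (SNR48, SNR52, SNR60 and SNR71), compared with 1 of 12 among box C/D snoRNAs of polycistrons and 1 of 7 among box H/ACA snoRNAs. With so many letters unknown, a missing match says nothing about the box, and a match does not locate it. In SNR48 and SNR60 the known letters of the matching window were A and T alone. The last 7 nt of the RNAs were listed in neither replicate and have no letters here, and box D was not searched.

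All 20 RNAs were listed in replicate 1 and 18 in replicate 2, where SNR65 and SNR87 had no position. Over all annotated genes, 43.0% were listed in replicate 1 and 59.7% in replicate 2. Of all 76 snoRNAs, 76 were listed in replicate 1 and 73 in replicate 2, so being listed was common to snoRNAs. The 20 RNAs had 576 positions in replicate 1 and 208 in replicate 2, or 6.65% and 1.15% of all positions. Replicate 1 thus had 2.77 times as many positions in these RNAs, although the table as a whole listed 8666 positions in replicate 1 and 18088 in replicate 2. A position is a listed nucleotide, so this ratio does not measure depth. An RNA had 28.8 ± 14.002 positions in replicate 1 and 10.4 ± 6.77 in replicate 2 (SD across 20 RNAs), and the mean over the replicates was 19.6 ± 13.0 (SD, n = 2). The number of positions was larger in replicate 1 for 19 RNAs and equal for 1, SNR68, with 9 in each. Of the other 56 snoRNAs, 43 had more positions in replicate 1 and 13 had more in replicate 2. Of the annotated nucleotides, 26.7% were listed in replicate 1 and 9.63% in replicate 2.

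The RNAs kept a similar order in both replicates. SNR48 had 44 and 22 positions, SNR60 had 46 and 19, and SNR40 had 43 and 21, the 3 largest numbers by the mean of the replicates. SNR87 had 10 and 0, SNR69 had 9 and 3, and SNR50 had 13 and 1, the 3 smallest. Across the 20 RNAs Spearman's rho between the replicates was 0.84 and Pearson's r was 0.83, given as a description, since the points share the length and the cellular level of each RNA. SNR71, with 90 nt, was the RNA most densely listed in replicate 1, at 52.2% of its nucleotides and 17.8% in replicate 2. The lowest density in replicate 1 was that of SNR68, at 6.62% in both replicates.

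**Figure D1:**
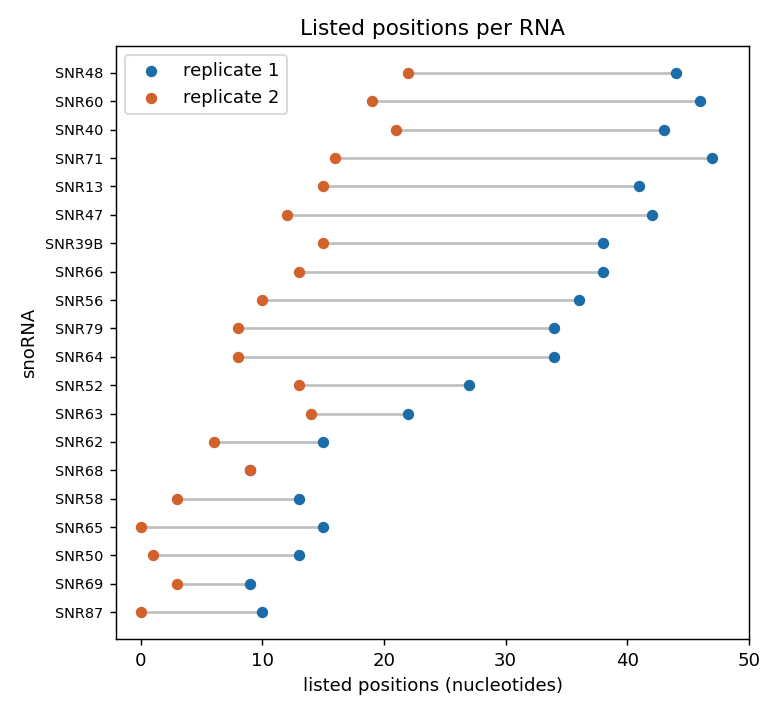
Number of listed positions (nucleotides, x axis) in each of the 20 snoRNAs (y axis, ordered by the mean of the replicates), with replicate 1 in blue and replicate 2 in orange joined by a grey line. Replicate 1 lies to the right for 19 RNAs, and both points coincide at 9 for SNR68.

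By target, the 14 guides of the 25S ribosomal RNA had 27.4 ± 14.9 positions in replicate 1 and 10.3 ± 6.99 in replicate 2 (SD across RNAs). The 3 guides of both ribosomal RNAs had 37.3 ± 8.96 and 15.3 ± 4.93, and the 3 guides of the 18S ribosomal RNA had 26.7 ± 14.5 and 6 ± 5.29. In replicate 1 the ranges overlapped, from 9 to 47 positions for 25S guides, 27 to 43 for guides of both and 10 to 36 for 18S guides. In replicate 2 they were 0 to 22, 12 to 21 and 0 to 10, and the range of the 25S guides covered both of the others. The guides of both and the 18S guides had 3 RNAs each, too few to read a difference by target from these ranges. The 17 box C/D snoRNAs processed from polycistrons had similar numbers, 30.1 ± 9.80 and 11.4 ± 11.4, and the 6 encoded in introns had 26.3 ± 5.24 and 5.83 ± 5.46. The ratio of replicate 1 to replicate 2 was 2.65 for polycistrons and 4.51 for introns. It was 1.14 for the 29 box H/ACA snoRNAs, with 23.7 ± 12.4 and 20.8 ± 19.9 positions, and 0.753 for the 4 U3 and acetylation-guide RNAs. No test was run on these differences, because RNAs are not replicates of a condition.

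In replicate 1 the signal of the 20 RNAs lay mainly close to the 3' end. Each value in the tables is the share of an RNA's signal at 1 nucleotide, and distances are counted from 0 at the last annotated nucleotide. Nucleotides 15 to 59 from the end held 77.5% ± 21.7 of the signal of an RNA in replicate 1 (SD across 20 RNAs) and 42.9% ± 34.4 in replicate 2 (SD across 18 RNAs), and the mean of the replicates was 60.2% ± 24.4 (SD, n = 2). These nucleotides make up 44.1% and 44.2% of the RNAs, so the share in replicate 2 was close to their part of the length. The share in replicate 1 ranged from 5.26% in SNR68 to 96.4% in SNR79. In replicate 2 it ranged from 0 in SNR50 and SNR68 to 100% in SNR58 and SNR79, which had 3 and 8 positions there.

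The 2 replicates put that signal at different distances. Nucleotides 15 to 24 from the end held 48.8% ± 19.4 in replicate 1 and 5.20% ± 9.30 in replicate 2, where their part of the length was 9.80% and 9.82%. The next 10 nucleotides, 25 to 34 from the end, held 11.97% ± 8.83 and 25.4% ± 32.6 for the same part of the length. In replicate 1 the band nearer the end held more than the next one in 18 of 20 RNAs and less in 1. In replicate 2 it held more in 2 of 18 RNAs and less in 12, so the order of the bands turned around. By the means of the sets it also turned around in polycistronic, intronic and box H/ACA snoRNAs (values below). In the polycistronic set it did not by the medians of replicate 2, 1.83% at 15 to 24 nt and 0 at 25 to 34 nt. By the means, the change between replicates was thus not particular to the single-gene RNAs. In the 11 RNAs with at least 10 positions in both replicates the band at 15 to 24 nt held 51.0% and 5.69%, and the band at 25 to 34 nt held 13.6% and 23.8%. The number of positions behind an RNA's shares moved with the replicate as well, and its part in the difference was not tested.

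**Figure D2:**
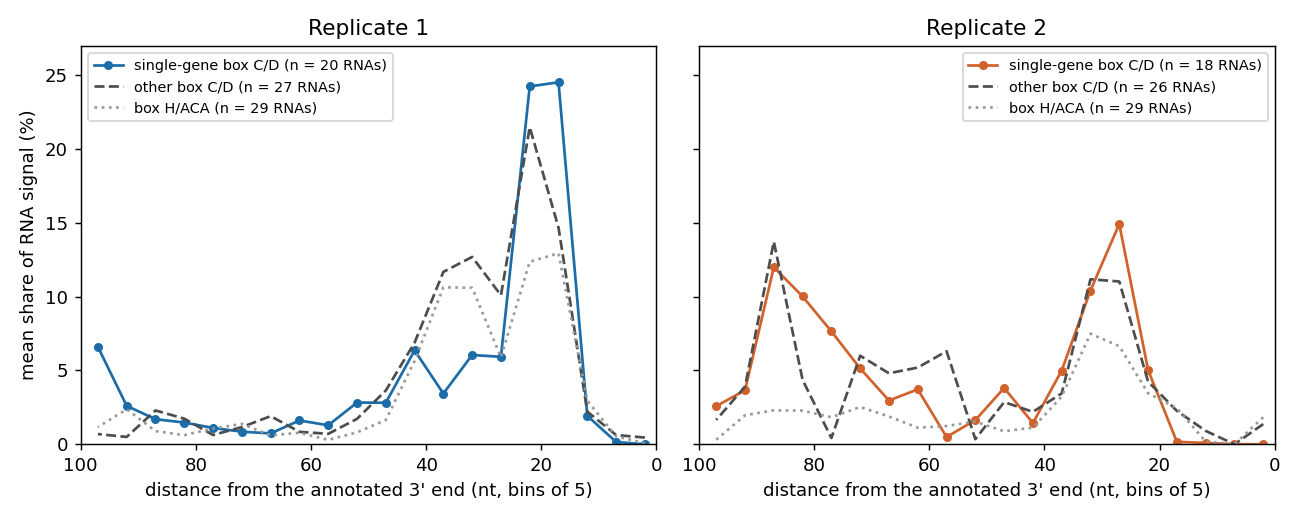
Mean share of an RNA's signal (%, y axis) in bins of 5 nt by distance from the annotated 3' end (x axis, 3' end at the right), for the 20 single-gene box C/D snoRNAs (coloured line), other box C/D snoRNAs (dashed) and box H/ACA snoRNAs (dotted), with replicate 1 at the left and replicate 2 at the right. In replicate 1 the coloured line is highest at 15 to 24 nt, with 24.5% and 24.3% in its 2 bins, and in replicate 2 it is highest at 25 to 29 nt, with 14.9%.

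Almost nothing was listed at the 3' end itself. The listed nucleotide closest to the end lay 7 to 54 nt from it in replicate 1, with a median of 13.5 nt, and 11 to 89 nt from it in replicate 2, with a median of 26.5 nt. The last 15 nt held 2.08% and 0.0882% of the signal, against 14.7% of the length in each case. Whether a crosslink so close to the end could be listed is not known here, since the filters are not given. A lack of contact at the 3' end was therefore not shown. SNR48 and SNR71 reached closest, to 7 nt from the end in replicate 1. SNR68 was the exception among these RNAs in replicate 1: its closest nucleotide was 54 nt from the end, and in replicate 2 it was 78 nt.

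In other snoRNA sets the last 15 nt held 3.82% (polycistronic box C/D), 1.87% (intronic box C/D) and 3.55% (box H/ACA) of the signal in replicate 1. Within replicate 1 the band at 15 to 24 nt held 36.2% ± 16.5 in polycistronic box C/D snoRNAs, 43.4% ± 15.8 in intronic ones and 25.3% ± 19.0 in box H/ACA snoRNAs (SD across RNAs). The band at 25 to 34 nt held 22.2% ± 14.97, 16.8% ± 12.7 and 16.5% ± 13.8 in the same order, compared with 11.97% in the single-gene RNAs. These bands are part of a longer RNA in box H/ACA snoRNAs, 4.43% of the length against 9.80%. In replicate 2 the band at 15 to 24 nt held 7.73% ± 12.4, 4.51% ± 7.08 and 5.91% ± 10.9. The band at 25 to 34 nt then held 19.2% ± 28.7, 37.1% ± 44.7 and 14.1% ± 20.8. At 15 to 24 nt in replicate 1, box H/ACA snoRNAs held 25.3% on 4.43% of the length. The single-gene RNAs held 48.8% on 9.80%, so the 2 shares cannot be compared without the length. None of the differences between the sets was tested.

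**Figure D3:**
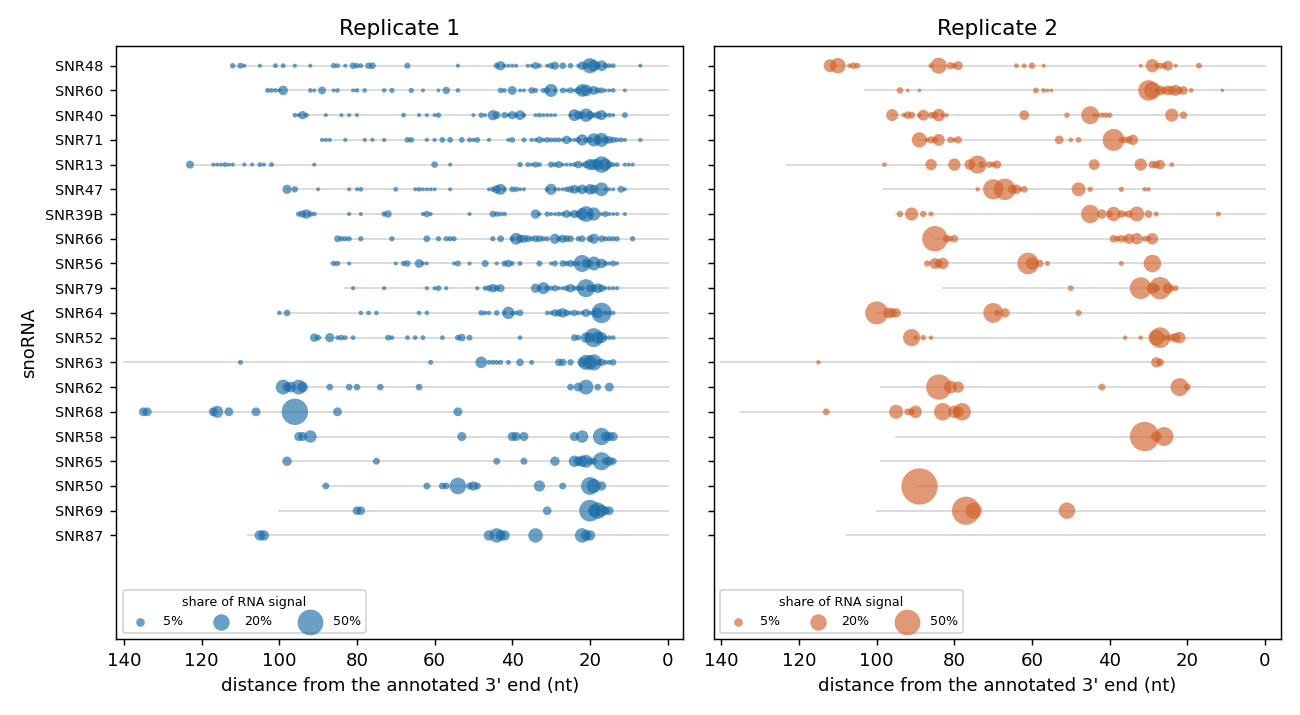
Listed nucleotides of each of the 20 snoRNAs (y axis, ordered by mean number of positions) by distance from the annotated 3' end (x axis in nt, 3' end at the right, drawn to 140 nt), with replicate 1 in blue and replicate 2 in orange; the area of a point grows with its share of the RNA's signal and the grey line is the annotated RNA. The largest points stand at 15 to 24 nt in most RNAs of replicate 1 and farther to the left in replicate 2, and SNR65 and SNR87 have no point in replicate 2. The strongest nucleotide of SNR63 in replicate 2, 236 nt from the end, lies beyond the axis.

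In replicate 2 the first 10 nt held more of the signal than their part of the length, and in replicate 1 they did not. Nucleotide 1 alone held more than its part on average in both replicates. The first 10 nt held 9.88% ± 11.9 of the signal in replicate 1, close to their 9.80% of the length, and 23.5% ± 27.9 in replicate 2, where they were 9.82% of the length (SD across RNAs). The mean of the replicates was 16.7% ± 9.65 (SD, n = 2). Nucleotide 1 was listed in 13 of the 20 RNAs of replicate 1 and 9 of the 18 of replicate 2, where all listed snoRNAs gave 47.4% and 24.7%. It held 2.59% and 14.1% of the signal on average, and 1 nucleotide is 0.980% and 0.982% of the length. The average of replicate 2 leaned on SNR50, whose only position was nucleotide 1. Without SNR50 nucleotide 1 held 9.02% and the first 10 nt held 19.0% in replicate 2, with values of 2.72% and 10.3% in replicate 1.

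Within the first 10 nt the signal lay on the outermost bases. Nucleotides 1 to 5 held 8.95% and 20.6% of the signal, while nucleotides 6 to 10 held 0.933% and 2.92%. The 2 groups are equal parts of the 9.80% and 9.82% of the length in the first 10 nt. The contrast between the replicates in the first 10 nt thus depends on the window. Nucleotide 1 was the strongest nucleotide of SNR66 in replicate 2, an A with 49.1% of the signal, compared with 2.90% in replicate 1. It was also the strongest of SNR64 in replicate 2, a T with 39.6%, compared with 0.862% in replicate 1. In SNR52 it held 4.76% and 22.1%, in SNR71 0.602% and 17.1%, in SNR48 1.60% and 11.9%, and in SNR40 1.01% and 10.4%. These 6 RNAs had the larger share in replicate 2, and of the 18 RNAs listed in both, 9 did and 7 had the larger share in replicate 1. SNR62, SNR47 and SNR13 were among the latter, with 16.2%, 5.88% and 4.23% on nucleotide 1 in replicate 1 and none listed there in replicate 2. In the polycistronic box C/D snoRNAs nucleotide 1 was listed in 11 of 17 and 4 of 16 and held 2.36% and 6.74%.

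In replicate 1 the strongest nucleotide was in the 3' part of nearly every RNA, and in replicate 2 it was spread over the RNA. It lay 15 to 59 nt from the end in 18 of the 20 RNAs of replicate 1 and 7 of the 18 of replicate 2, where all listed snoRNAs gave 85.5% and 32.9%. It lay 15 to 24 nt from the end in 15 RNAs in replicate 1 and in none in replicate 2. The 2 RNAs outside the wider band in replicate 1 were SNR68 and SNR62, and SNR62 had 3 nucleotides tied, of which nucleotide 79 lay 21 nt from the end. The strongest nucleotide was farther from the 3' end in replicate 2 in 15 of 18 RNAs, nearer in 2 (SNR62 and SNR68) and the same in 1. Of the other 55 snoRNAs listed in both, it was farther in 45 and nearer in 9.

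SNR60, a guide for the 25S ribosomal RNA, was the single RNA with the same strongest nucleotide in both replicates. This was nucleotide 74, an A at coordinate 349160 on chromosome X and 30 nt from the 3' end, with 12.4% of the signal in replicate 1 and 31.5% in replicate 2. The same strongest nucleotide was found in 1.59% of all names listed in both. No other member had its strongest nucleotides within 5 nt of each other, so the count was 1 of 18. The share was 4.82% of all names listed in both replicates and 5.48% of the snoRNAs. Among members with at least 10 positions in both it was 1 of 11, compared with 8.25% of all such names. Next to nucleotide 74 of SNR60, nucleotide 75 held 0.442% and 21.2%. Nucleotides 82 and 83 held 11.5% and 10.2% in replicate 1 and 3.22% and 5.14% in replicate 2. All of these stand in the capital letters of the SNR60 window shown above.

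**Figure D4:**
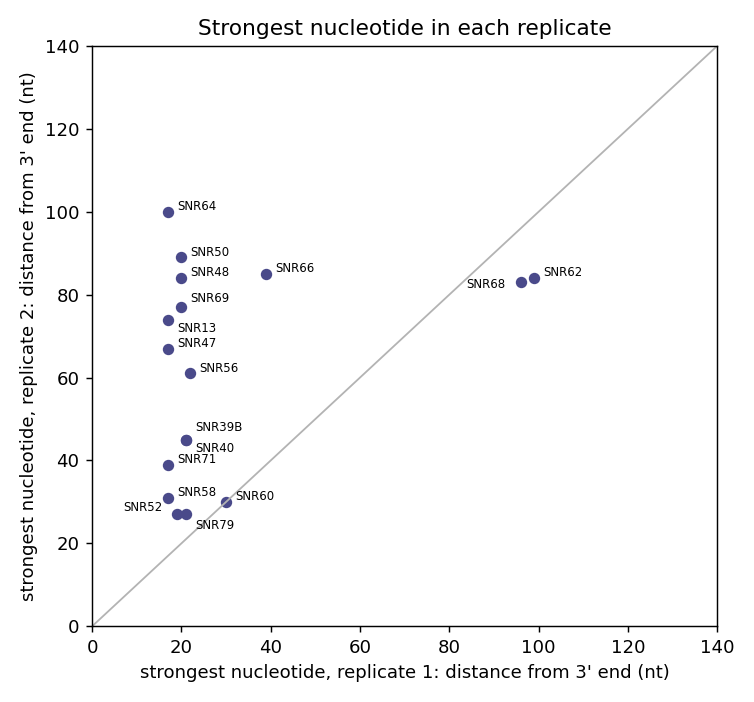
Distance of the strongest nucleotide from the annotated 3' end (nt) in replicate 1 (x axis) and replicate 2 (y axis) for 17 of the 18 snoRNAs listed in both, with the line of equal distance and the 5'-most nucleotide taken in ties; SNR63, at 19 and 236 nt, lies beyond the axis. SNR60 stands on the line at 30 nt, SNR62 and SNR68 lie below it, and the other 14 lie above it.

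The guides of the 25S ribosomal RNA with over 20 positions in replicate 1 had their maximum of that replicate at 17 to 39 nt from the end. In SNR13 it was nucleotide 107, a T 17 nt from the end with 20.1%, inside the run of T that closes the window shown above. In replicate 2 the maximum of SNR13 was nucleotide 50, a G with 24.8%. The maximum of SNR13 thus lay near the 3' end in replicate 1 and nearer the middle of the RNA in replicate 2, and the replicates shared 4 nucleotides. SNR48 had its maxima at nucleotide 93 with 17.1% and nucleotide 29 with 19.4%, both A. SNR71 had them at nucleotide 73, a T with 14.5%, and nucleotide 51, an A with 35.9%. SNR39B, which guides the same kind of mark, had them at nucleotide 75 with 18.3% and nucleotide 51 with 25.3%, both A. In each of these RNAs the maximum of replicate 2 lay upstream of that of replicate 1.

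SNR64 had the largest single share in replicate 1 among the 25S guides with over 20 positions there, an A at nucleotide 84 with 31.0%. SNR66 had its maximum in replicate 1 at nucleotide 47, an A with 10.1%, the smallest maximum of that replicate. This is the first A of the run of capitals in the SNR66 window, and in replicate 2 that nucleotide held 3.77%. SNR63, the longest of the RNAs with 255 nt, had maxima near its opposite ends, at nucleotide 236, a T with 19.3%, and nucleotide 19, an A with 42.5%. Its strongest nucleotides stood 217 nt apart, the widest distance in the set, where the median was 31.5 nt.

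The sparse 25S guides had single nucleotides with large shares. SNR68 had 52.6% on nucleotide 40, an A, in replicate 1, the largest share of that replicate, and 22.9% on each of nucleotides 53 and 58 in replicate 2. SNR69 had 35% on nucleotide 81, a T in a run of T, and 60.0% on nucleotide 24, an A. SNR58 had 22.2% on nucleotide 79, a C, and 65.4% on nucleotide 65, an A. With 9 and 3 positions in SNR69 and 13 and 3 in SNR58, few positions set these shares. SNR50 had 23.5% on nucleotide 70, a T, in replicate 1 and its entire signal on nucleotide 1 in replicate 2. SNR62 had 16.2% on each of nucleotides 1, 5 and 79 in replicate 1 and 48.5% on nucleotide 16, an A, in replicate 2. SNR65 was listed in replicate 1 alone, with 24.2% on nucleotide 83, an A, and 15 positions.

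Guides with sites in both ribosomal RNAs had these maxima. SNR40 had 13.1% on nucleotide 76, an A, in replicate 1 and 23.96% on nucleotide 52, a T, in replicate 2. Nucleotide 52 was also the third strongest in replicate 1, with 7.54%, and nucleotide 73 was the second strongest in both, with 10.1% and 12.5%. SNR47 had 13.7% on nucleotide 82 and, in replicate 2, 34.8% on nucleotide 32 and 30.5% on nucleotide 29, all of them A. SNR52, the RNA polymerase III transcript, had 26.7% on nucleotide 73 and 32.1% on nucleotide 65, both A and 8 nt apart. The maxima of the replicates were thus 24 nt apart in SNR40 and 50 nt apart in SNR47.

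Of the guides for the 18S ribosomal RNA, SNR79 had the closest pair of maxima after SNR60. They were nucleotide 63, an A with 24.2%, and nucleotide 57, a T with 37.7%, 6 nt apart. Nucleotide 52, an A, was second in both replicates, with 10.3% and 35.8%. SNR56 had 21.5% on nucleotide 66 and 34.9% on nucleotide 27, both A and 39 nt apart. SNR87 was listed in replicate 1 alone, with 10 positions, and its maximum was tied among 3 nucleotides, 65, 75 and 87, each an A with 15.4%, which together held 46.2%.

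Most of the signal lay on A and T, written as T where the RNA has U. A held 48.5% ± 18.5 of the signal of an RNA in replicate 1 and 54.2% ± 23.6 in replicate 2, and T held 37.2% ± 18.7 and 29.7% ± 24.7 (SD across RNAs). The mean of the replicates for T was 33.4% ± 5.34 (SD, n = 2). C held 7.07% and 6.31%, and G held 7.23% and 9.81%. By number of positions, A made up 39.2% and 45.2% and T made up 37.3% and 31.3%, so A had a larger share of the signal than of the positions in both replicates. The base composition of the whole RNAs was not used here, since letters are known for 689 of 2161 annotated nucleotides, and a preference for a base was therefore not measured.

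A also held the largest share of the signal in other listed RNAs. In the other snoRNAs A held 49.3% and 46.8% of the signal and T 31.7% and 35.1%, and in names that are not snoRNAs A held 50.2% and 43.8%. The strongest nucleotide was an A in 13 of the 20 RNAs of replicate 1 and 13 of the 18 of replicate 2, where all listed snoRNAs gave 71.1% and 57.5%. It was a T in 6 and 4. The range between RNAs was wide, and SNR13 had 72.5% of its signal on T in replicate 1 and 9.17% in replicate 2, where 46.8% lay on G. Among the 11 RNAs with at least 10 positions in both, A held 50.2% and 60.1% and T held 37.4% and 20.9%. By place, T made up 50% and 44.4% of the positions in the first 10 nt, and 35.5% and 27.1% of those 15 to 34 nt from the end.

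The replicates shared 95 nucleotides in these RNAs, which is 16.5% of the positions of replicate 1 and 45.7% of those of replicate 2. In the 18 RNAs listed in both, replicate 1 listed 28.2% of the nucleotides and replicate 2 listed 10.7%, which are the shares to read these against. Of the replicate 2 positions, 76.0% lay within 2 nt of a replicate 1 position, where 55.4% of all nucleotides of these RNAs did. The share of replicate 2 positions also listed in replicate 1 was above replicate 1's density in 10 RNAs and below it in 8. The excess over that density was therefore not common to all the RNAs. The share was above the density in 14 polycistronic box C/D snoRNAs and below it in 2, and above in 4 intronic ones and below in 2. In box H/ACA snoRNAs it was above in 16 and below in 13, and it was above in all 4 U3 and acetylation-guide RNAs. In polycistronic box C/D snoRNAs the shared nucleotides were 17.4% and 46.1% of the positions, with densities of 28.9% and 11.4%.

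By overlap of signal, agreement was highest in SNR60, SNR40 and SNR66, and by the share of replicate 2 positions also listed in replicate 1 it was highest in SNR79, at 87.5%. In SNR60, 15 nucleotides were shared, 78.9% of the replicate 2 positions, and they carried 57.1% of the signal in replicate 1 and 96.1% in replicate 2. The overlap of signal, the sum over nucleotides of the smaller share, was 32.5% in SNR60, 29.4% in SNR40 and 28.7% in SNR66. SNR66 shared 10 nucleotides, of which 8 stand in the A-rich stretch shown above, and SNR40 shared 13. SNR48 and SNR79 followed with overlaps of 21.9% and 21.8%, and SNR79 had 7 of its 8 replicate 2 positions in replicate 1 as well. All of the 5 had at least 8 positions in replicate 2.

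At the other end, SNR50, SNR58, SNR62 and SNR69 shared no nucleotide, and each had 1 to 6 positions in replicate 2. Low overlap was not restricted to sparse RNAs. SNR56 shared 2 of 10 replicate 2 positions with an overlap of 3.66%, SNR13 shared 4 of 15 with 5.68%, and SNR71 shared 7 of 16 with 6.02%. Over the 18 RNAs the overlap had a mean of 10.5% and a median of 6.39%. The strongest nucleotide of replicate 1 was listed at all in replicate 2 in 3 RNAs, and that of replicate 2 was listed in replicate 1 in 6. When the 3 strongest nucleotides of each replicate were taken, 8 of 18 RNAs had a pair within 5 nt, and 25 of the other 55 snoRNAs did.

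Of the 95 shared nucleotides, 53 were A, 30 were T, 7 were G and 5 were C. A thus made up 55.8% of the shared nucleotides, compared with 39.2% of the positions of replicate 1 and 45.2% of those of replicate 2. Listed nucleotides often stood in unbroken runs, with a longest run of 2 to 25 nt in replicate 1 (median 10) and 1 to 10 nt in replicate 2 (median 3). Neighbouring nucleotides are therefore not separate observations of a site.

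The messenger RNAs of the box C/D particle are read against the 43.0% and 59.7% of all annotated genes that were listed. All 4 core protein genes had positions in both replicates, with 4 and 11 in NOP1, the methyltransferase, 2 and 7 in NOP58, 3 and 1 in NOP56 and 1 and 2 in SNU13. Of 7 assembly factor genes 2 and 5 were listed, near that share, with at most 2 and 4 positions. Of 8 genes of snoRNA processing and termination 6 and 7 were listed. SEN1, the helicase named with Dbp2p in the series title, had 1 and 16 positions, the most of these 8 genes in replicate 2, while NRD1 and NAB3 had 2 each in replicate 1. Positions in messenger RNAs were not scaled to gene length, so their order across genes may follow length. Replicate 2 had more positions in 11 of these 19 genes and fewer in 2, where the data as a whole listed 18088 positions in replicate 2 and 8666 in replicate 1. The same count over all messenger RNAs was not made. Replicate 1 had more in 19 of the 20 snoRNAs, in 43 of the other 56 snoRNAs and in 19 of the 29 box H/ACA snoRNAs among those.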

How the data were processed

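The authors deposited 1 table per iCLIP replicate, in which each listed nucleotide has its place, base, gene and value. The deposited value is a fraction, the nucleotide's part of its gene's signal. The fractions of every gene sum to 1, within 1e-06, and the depth of a gene or library is not stated with them. In RNAs such as SNR69 in replicate 2, with 60%, 20% and 20%, the shares were multiples of the smallest share. Such shares hold some information on depth, which was not worked out here. The smallest share was 0.442% in replicate 1 and 0.322% in replicate 2 in SNR60, and 0.529% and 0.917% in SNR13. More listed positions in replicate 1 therefore do not show a greater depth there. The submitters' processing notes name CASAVA, TopHat and the build sacCer3 without saying what each did, and filters, collapsing of repeated cDNAs and treatment of reads with several places are not given in the sources used here. Spans come from the RefSeq R64 annotation table. All 784 member positions lay inside them on the annotated strand, and 58 start codon letters (26 of 26 on reverse and 32 of 32 on forward genes) read ATG, so letters are those of the transcript.

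Each replicate was computed alone with Python 3.11.15, numpy 2.4.6, pandas 2.3.3, scipy 1.17.1 and matplotlib 3.10.9, on functions checked with simulated positions. With 1 group of 2 samples and no control library, no test was run, and values are descriptions. Strongest nucleotides kept ties, and where 1 is named the 5'-most stands. The members and lists were chosen with earlier results of these data known. RNAs given full values were those with matching maxima, the 3 highest and lowest by positions and by overlap, and the 3 largest single shares per replicate, and the other members were named after their values were seen.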

Additional observations from a re-analysis of the deposited data

How the results depend on the processing

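The 6 summary values (positions per RNA, signal at 15 to 59 nt, signal in the first 10 nt, signal on T, RNAs with strongest nucleotides within 5 nt, positions shared) were recomputed without the lowest values, with neighbours merged, on well-covered RNAs, without SNR52 and under settings particular to each. Of 38 recomputed values, 34 moved by less than the spread between replicates or, for the count, by less than 1.5 times. That spread was wide, 13.0 for positions per RNA and 20.6 for shared positions in percent, so large changes could count as unmoved. Without the lowest values, positions per RNA were 11.9 in place of 19.6. Shared positions were then 33.3% of those of replicate 2 in place of 45.7%. Both changes are among the 34. With positions within 5 nt merged, positions per RNA were 3.67 in place of 19.6 and shared positions 7.12% in place of 31.1% (mean of both replicates' shares), which merging produces by construction. Shared positions were 56.6% when 2 nt apart counted as shared, and the count of RNAs with matching maxima was 8 with the 3 strongest nucleotides in place of 1. Leaving out a replicate, which with 2 replicates can never move a mean by more than the spread and is not counted above, gave 10.4 to 28.8 positions per RNA, 42.9% to 77.5% at 15 to 59 nt, 9.88% to 23.5% in the first 10 nt and 29.7% to 37.2% on T. Leaving out SNR50 was chosen after seeing the data and gave 14.6% in the first 10 nt. No paired analysis was possible because there is 1 group. Depth was not worked out here, which limits the reading of every share, most in RNAs with few positions.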
